A study of Gossypium hirsutum with 9 samples.

Results

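Chromosome D05 of upland cotton (Gossypium hirsutum) carried 4534 of the 80970 gene IDs in the deposited tables, and 2728 of them (60.2%) had 3 or more of the 9 libraries at an FPKM of 1 or above. FPKM is the number of reads of a gene per kilobase of its length, scaled to the size of the library. Members were all IDs that begin with Gohir.D05G and passed this filter, and the comparison set was the 2948 of 4496 IDs (65.6%) of chromosome A05 that passed it. All IDs together gave 50988 tested genes. The samples were ovules of strain TM-1 cultured for 5 days on medium with 50, 150 or 300 mM glucose, with 3 RNA sequencing libraries per concentration. Strain, tissue and culture time were the same in all 9 libraries, glucose was the only agent the labels name, and no medium of matched osmolarity without the extra glucose was among the samples. Whether separate cultures lay behind the libraries of a concentration is not stated, and the p-values therefore speak only of how far these libraries vary, and that variation may be technical. In whole ovules fewer cells of a type and less RNA per cell cannot be told apart.

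Upland cotton is an allotetraploid: its nucleus holds the A and the D subgenome, which come from different ancestors, and most genes are present as an A copy and a D copy, called homoeologues. Chromosomes of equal number in the subgenomes are homoeologous and largely share their gene order, apart from exchanges of segments such as the known reciprocal translocation between A04 and A05. Cotton fibres are single cells that grow from the ovule surface, and ovules in culture take their carbon from the sugar of the medium.

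The files give no names or descriptions for the IDs, and 0 of them were found in the RefSeq gene table of the species, so genes are given by ID with no function. The number in an ID was taken as its place along the chromosome, with no coordinates used here. Each library held 17803779 to 19140297 whole reads recovered from the FPKM values. The part of a library's reads that fell on D05 was 5.79% to 5.89% at 50 and 150 mM but 5.65% to 5.70% at 300 mM, where all 3 libraries lay below the other 6. Across the tested D05 genes, correlations of log2 levels between libraries of a group lay between 0.969 and 0.978 for 50 mM. For 150 mM they lay between 0.957 and 0.979, and for 300 mM between 0.942 and 0.955. Replicate 1 at 300 mM stood nearer to the 150 mM libraries on D05 (r of 0.920 to 0.957) than replicates 2 and 3 (0.897 to 0.913 and 0.912 to 0.922).

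Raising glucose from 50 to 150 mM changed the level of 908 D05 genes (33.3%), against 29.3% of all tested genes. Of these, 504 rose and 404 fell. A gene was called where the adjusted p of limma, fitted to log2(FPKM + 0.5) of all 9 libraries and adjusted by the Benjamini-Hochberg method over all tested genes, was under 0.05. Rising genes were 18.5% of the D05 genes tested (16% of all tested genes) and falling genes 14.8% (13.3%). Rising D05 genes had a median log2 change of 0.91 and falling ones of -0.86. The 3 libraries of a group did not overlap those of the other for 1435 D05 genes (52.6%), against 48.9% of all tested genes.

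Between 150 and 300 mM only 208 D05 genes changed (7.62%, against 6.11% of all tested genes), and most of them fell. Falling genes numbered 165 (6.05%, against 4.8%) and rising genes 43 (1.58%, against 1.31%). The groups did not overlap for 701 D05 genes (25.7%, against 23%). The D05 count was 116 without replicate 1 at 150 mM, 118 without replicate 2, 134 without replicate 3, and 104 without replicate 2 at 300 mM, but 306 without replicate 1 at 300 mM. Scaling by the recovered read totals instead, the share of these calls that rose was 32.1%, against 20.7% as deposited.

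At 300 against 50 mM 1019 D05 genes changed (37.4%, against 32.3% of all tested genes), with 469 higher at 300 mM (17.2%, against 16%) and 550 lower (20.2%, against 16.3%). The balance of rises and falls depended on the scaling: 46.0% of these D05 calls were higher as deposited, 53.9% with upper-quartile scaling and 60.5% with scaling to the recovered reads. That last scaling moved the median over all tested genes by 0.12 on the log2 scale, so directions here are relative to the deposited scale. The groups did not overlap for 1366 D05 genes (50.1%, against 46.3%).

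Over the 3 concentrations together, 1142 D05 genes (41.9%) passed the limma F test, against 36.2% of all tested genes. All tested genes include IDs outside the Gohir A and D naming, and without those the shares to compare with are higher. Of the 46862 tested Gohir A and D genes 37.7% passed the F test. The shares called were 30.5% for 150 against 50 mM, 6.44% for 300 against 150 mM and 33.6% for 300 against 50 mM. Sorted by their group means, 409 of the 1142 (35.8%) peaked at 150 mM and 215 (18.8%) had their lowest mean there. A steady fall was seen in 295 (25.8%) and a steady rise in 223 (19.5%). Of the 18437 genes of all chromosomes that passed, 33.6% peaked at 150 mM, 20.2% were lowest there, 24.4% fell steadily and 21.9% rose steadily. Genes that passed both single steps were few on D05: 51 rose and then fell (1.87%, against 1.91% of all tested genes), 16 fell at both steps (0.587%, against 0.443%), 13 fell and then rose (0.477%, against 0.426%), and 5 rose at both (0.183%, against 0.151%).

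D05 ranked first of the 26 chromosomes by the share passing the F test, with A05 second at 40.6%. D05 was also first for 150 against 50 mM and for 300 against 50 mM, and second for 300 against 150 mM, where D02 had 8.75%. In 18 other fits (other pseudocounts, filters and scalings, a replicate block, limma-voom, and each library left out in turn) D05 stayed first for the F test and for 300 against 50 mM in all 18. It was first for 150 against 50 mM in 13 of the 18, with ranks down to 4, and for 300 against 150 mM in 1, with ranks down to 7. The genes of the 24 chromosomes other than D05 and A05 passed the F test in 37.2% of cases.

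**Figure D1:**
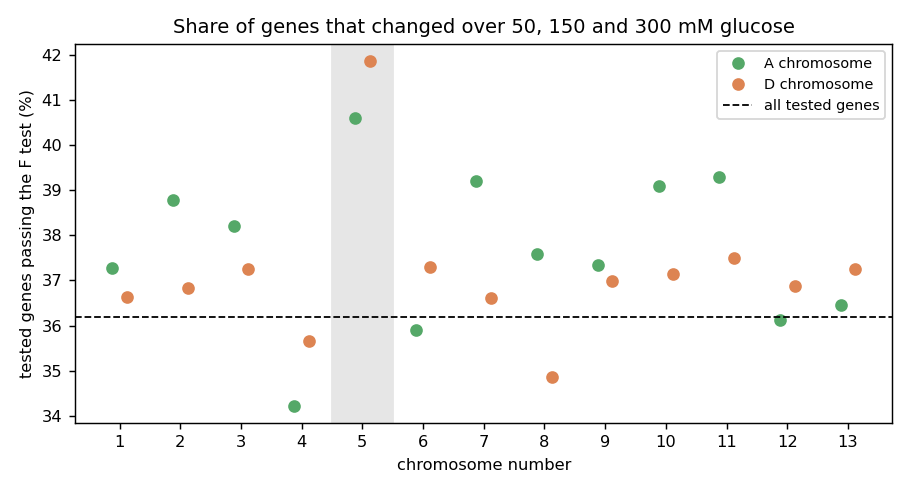
Percent of tested genes passing the limma F test over 50, 150 and 300 mM glucose (y axis, from 34% up, not from 0) on each A and D chromosome (x axis, chromosome number); the dashed line marks all tested genes at 36.2% and the grey band chromosome 5. D05 at 41.9% and A05 at 40.6% are the highest points.

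The question of D05 against A05 was first put to the shares. A05 had 960 genes called for 150 against 50 mM (32.6%), 218 for 300 against 150 mM (7.39%) and 1036 for 300 against 50 mM (35.1%). The D05 share was higher by 0.72, 0.23 and 2.21 percentage points in these comparisons and by 1.26 points for the F test. Among the other 12 pairs of equal number the D minus A difference ran from -3.94 to 2.54, from -1.02 to 1.78, from -2.32 to 1.24 and from -2.73 to 1.43 points in the same order. A difference larger in size than that of D05 and A05 was seen in 6, 10, 1 and 7 of the 12 pairs. The direction of calls was nearly the same on both chromosomes, with 46.0% of the D05 calls and 45.8% of the A05 calls higher for 300 against 50 mM.

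Recomputed under 25 other settings, the difference for 300 against 50 mM stayed above 0 in all 25, from 0.55 to 2.60 points, and that for the F test in all 23 settings that give one, from 0.12 to 2.15 points. The differences for 150 against 50 mM and 300 against 150 mM were below 0 in 7 and 6 of the 25 settings. No test over genes was made of these differences, because neighbouring genes and gene copies are not independent.

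Levels gave a direct comparison with 1 value per library, the mean log2(FPKM + 0.5) of tested D05 genes minus that of tested A05 genes, in which the scaling of a library nearly cancels. The D05 mean was lower in all 9 libraries. At 50 mM the difference was -0.039, -0.045 and -0.042. At 150 mM it was -0.046, -0.030 and -0.050. At 300 mM it was -0.053, -0.034 and -0.018. The groups overlapped, with means of -0.042 ± 0.0029 (SD, n = 3), -0.042 ± 0.0103 and -0.035 ± 0.0174, and an exact permutation test of the F statistic over the 1680 labellings gave p = 0.743, where 0.00357 is the smallest p possible. Over the stretches of D05 and A05 that match in gene order, described further on and defined after the data had been seen, the difference was -0.041 ± 0.00098, -0.028 ± 0.0062 and -0.018 ± 0.0164 (SD, n = 3). There the 3 libraries at 50 mM lay below the other 6, and the same exact permutation test gave p = 0.0536. Over all tested genes, differences of the same kind ranged from 0.010 to 0.034 for D04 minus A04 and from -0.166 to -0.119 for D03 minus A03. For D12 minus A12 the 50 mM libraries lay below the other 6, at -0.033 to -0.015 against -0.0051 to 0.011. That order of libraries was therefore also seen outside chromosome 5. D04 and A04 are not full counterparts either, since parts of them aligned with A05 and D05.

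The share of calls on D05 was highest among the most abundant genes, without a steady rise over the lower levels. Of the 190 D05 genes with a mean FPKM of 50 or more, 59.5% passed the F test, against 58.0% of 205 on A05. Of the 636 D05 genes at 5 to 10, 36.0% passed, against 37.2% on A05, and of the 533 at 2 to 5, 40.7% passed, against 38.1%. The median of the mean FPKM was 8.25 on D05 and 8.64 on A05. Weighting the D05 shares to the levels of A05 left the difference at 0.75, 0.29, 2.25 and 1.34 points in the order above.

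The IDs in order were cut into 27 blocks of 100 tested genes on D05, the last of 128, and 29 on A05. The share passing the F test ran from 27% in block 22 (Gohir.D05G284100.v2.1 to Gohir.D05G297800.v2.1) to 59% in block 16 (Gohir.D05G202700.v2.1 to Gohir.D05G215900.v2.1), with a median of 43% over the D05 blocks. Blocks 17 and 18 followed block 16 with 55% and 51%. On A05 the range was 30% to 59% with a median of 42%, and its highest block, Gohir.A05G190500.v2.1 to Gohir.A05G205200.v2.1, held pairs with Gohir.D05G193900.v2.1 to Gohir.D05G208300.v2.1, which overlaps the highest D05 block.

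Block 16 of D05 leaned to falls. At 300 against 50 mM 56 of its 100 genes changed, of which 42 fell and 14 rose, and at 150 against 50 mM 47 changed, of which 29 fell and 18 rose. The median log2 change over all its genes was -0.34 for 300 against 50 mM, the lowest of the D05 blocks, where the median block stood at 0.01. Block 17 had 32 falls and 16 rises, while block 18 had 20 falls and 22 rises. The lean was not particular to D05. Blocks 15 and 16 of A05, which held pairs with genes of D05 block 16, leaned to falls as well. At 300 against 50 mM they had 33 falls and 20 rises, and 27 falls and 14 rises. The median log2 change of A05 block 15 was -0.20, the lowest of the A05 blocks. Nor was the lean confined to this region. At 300 against 50 mM D05 block 19 had 26 falls and 11 rises, and A05 block 12 had 26 falls and 10 rises. Other blocks leaned to rises, such as D05 block 7 with 25 rises and 16 falls.

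The start of the chromosome leaned to rises at 150 mM. In block 1, Gohir.D05G000101.v2.1 to Gohir.D05G014100.v2.1, 27 of 31 calls for 150 against 50 mM were higher (87.1%), the highest share of the D05 blocks. Its counterpart on A05 had 19 of 29 (65.5%). All 7 of the calls for 300 against 150 mM in block 1 of D05 fell, and at 300 against 50 mM its calls split 19 to 16.

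The far end changed least. Blocks 22 to 27, a grouping made after their values were seen, held 628 tested genes, of which 32.5% passed the F test, against 42.3% of the 1500 genes of blocks 1 to 15. Median levels there were lower, at mean FPKMs of 4.08 to 8.38 per block against 6.82 to 11.8 in blocks 1 to 15, and the part of the lower levels in the lower share was not tested. Block 25 took 357 listed IDs to reach 100 tested genes, where block 5 took 133. The far end of A05 was lower too. There 33.8% of the 648 genes of blocks 24 to 29 passed the F test, against 41.9% of the 1400 genes of blocks 1 to 14.

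**Figure D2:**
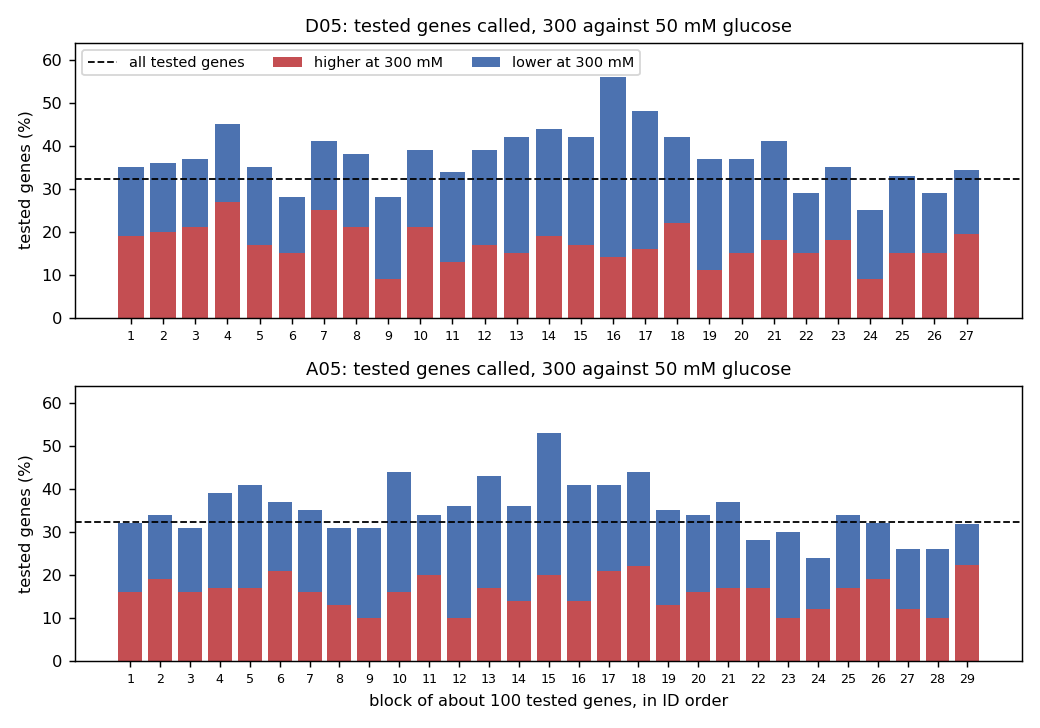
Percent of tested genes called for 300 against 50 mM (y axis) in each block of about 100 tested genes in ID order (x axis), on D05 above and A05 below; red parts are genes higher at 300 mM, blue parts genes lower, and the dashed line is the share of all tested genes, 32.3%. D05 block 16 is highest at 56%, mostly falls, and A05 block 15 is highest at 53%.

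For each of the 2 highest and 2 lowest D05 blocks the gene of largest change is given. Each is the extreme of its block and does not show what the other calls rest on. In block 16 Gohir.D05G212400.v2.1 had FPKMs of 5.43, 2.96 and 4.51 at 50 mM, 0.27, 4.20 and 0.136 at 150 mM, and 0.133, 0.045 and 0.399 at 300 mM. Its log2 change at 300 against 50 mM was -2.79 (SE 0.65, limma adjusted p = 0.0101) with no overlap, while a single library at 150 mM stayed near the 50 mM level. In block 17 Gohir.D05G222700.v2.1 had 6.10, 10.7 and 8.36, then 1.14, 0.667 and 0.944, then 0, 0.417 and 0.102, with a log2 change of -3.74 at 300 against 50 mM (SE 0.28, limma adjusted p = 5.67e-05).
In the low block 22 Gohir.D05G296000.v2.1, of 189 bases, had 24, 29 and 9 reads at 50 mM against 2, 0 and 0 at 150 mM and 0, 2 and 2 at 300 mM, and was called lower at 300 mM (limma adjusted p = 0.00199). In the low block 25 Gohir.D05G337300.v2.1 had FPKMs of 0.715, 1.09 and 1.65 at 50 mM, 6.89, 4.62 and 6.83 at 150 mM and 6.37, 7.02 and 4.20 at 300 mM. It rose by 1.958 on the log2 scale at 300 against 50 mM (SE 0.26, limma adjusted p = 0.000653), with no overlap with 50 mM.

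The naming rule gave 4 D05 genes with large rises at 150 mM. Gohir.D05G070700.v2.1 had FPKMs of 8.33, 8.58 and 9.22 at 50 mM, 127, 137 and 246 at 150 mM, and 242, 81.9 and 129 at 300 mM. All 6 libraries at the higher concentrations lay far above the 3 at 50 mM, and the rise at 150 mM was 4.15 on the log2 scale (SE 0.36, limma adjusted p = 0.000167). Gohir.D05G018800.v2.1 went from 0.627, 0.830 and 1.11 to 13.3, 12.3 and 16.3 and then 23.2, 18.6 and 14.8. Its rise at 300 against 50 mM was 3.83 (SE 0.195, limma adjusted p = 1.8e-05), with no overlap.
Gohir.D05G097000.v2.1 had 16.6, 23 and 30.4 at 50 mM, 185, 168 and 222 at 150 mM and 204, 151 and 201 at 300 mM, a rise of 3.05 at 150 mM (SE 0.22, limma adjusted p = 0.000114) that held at 300 mM. Gohir.D05G304200.v2.1 rose at 150 mM and stood lower again at 300 mM. Its FPKMs were 0.251, 0.374 and 1.27, then 10.4, 9.73 and 12.5, then 7.98, 3.06 and 1.53, of which the first step passed (log2 change 3.43, limma adjusted p = 0.000999) and the second did not (-1.52, limma adjusted p = 0.106).

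Among the large falls on D05, Gohir.D05G266000.v2.1 had 79.3, 93.1 and 74.5 at 50 mM, 5.2, 4.87 and 7.20 at 150 mM and 2.88, 6.11 and 7.19 at 300 mM. Its log2 change at 150 mM was -3.74 (SE 0.28, limma adjusted p = 0.000117), and the level stayed low at 300 mM. Gohir.D05G023700.v2.1 fell at both steps, from 18, 22 and 16.5 to 2.63, 1.80 and 2.42 and then 0.366, 1.31 and 0.760. The groups were fully apart, and the log2 change at 300 against 50 mM was -3.93 (SE 0.26, limma adjusted p = 3.37e-05).
Gohir.D05G216300.v2.1, Gohir.D05G167100.v2.1 and Gohir.D05G118800.v2.1 fell at 150 mM as well, with log2 changes of -3.49, -3.20 and -3.10. Their libraries at 300 mM were spread widely. Gohir.D05G216300.v2.1 stood at 0.677, 6.92 and 1.53 there, Gohir.D05G167100.v2.1 at 13, 28 and 64.8, and Gohir.D05G118800.v2.1, with 1, 8 and 19 reads, at 0.177, 1.45 and 3.37.

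**Figure D3:**
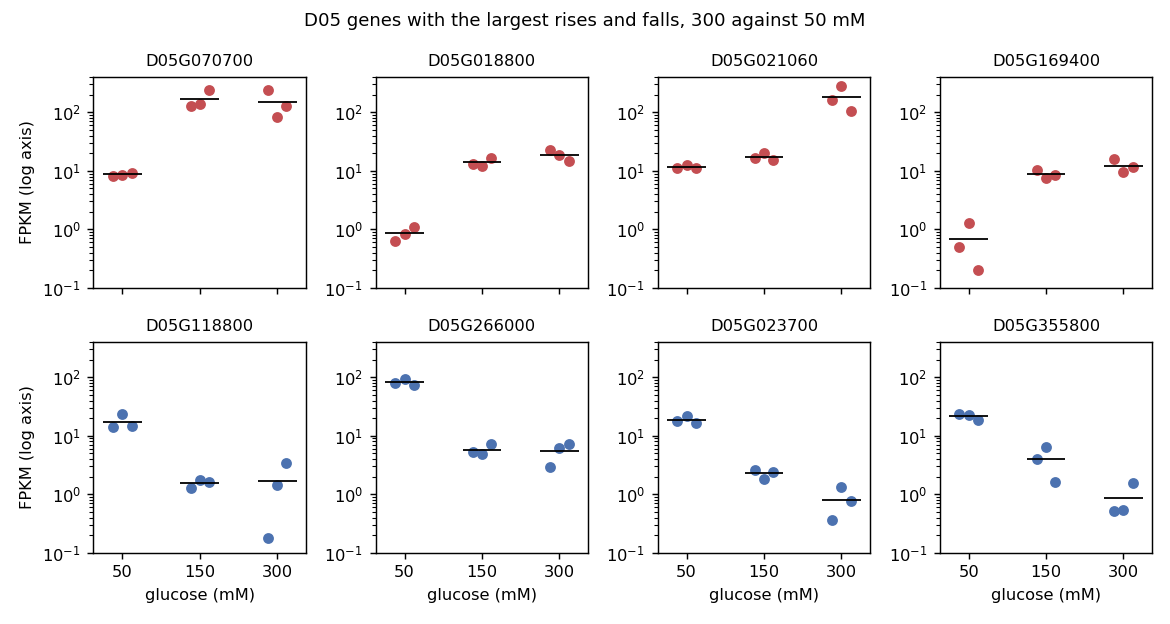
FPKM on a log axis (y) at 50, 150 and 300 mM glucose (x) for the 4 D05 genes with the largest rises (red) and the 4 with the largest falls (blue) at 300 against 50 mM; each point is a library and each line the mean of 3. Gohir.D05G021060.v2.1 is high at 300 mM alone, while the others had already moved at 150 mM.

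Few D05 genes rose from 150 to 300 mM, and among those the naming rule gave Gohir.D05G021060.v2.1 rose most. Its FPKMs were 11, 12.4 and 11.2 at 50 mM, 16.3, 20.1 and 15.5 at 150 mM and 160, 280 and 106 at 300 mM, and the second step was 3.26 on the log2 scale (SE 0.28, limma adjusted p = 0.00172). On A05 the named rise of this step was Gohir.A05G019900.v2.1, from 1.47, 2.37 and 1.49 to 56.0, 80.1 and 21.8 (4.38, SE 0.43, limma adjusted p = 0.00172). It was the 146th tested gene of A05 and Gohir.D05G021060.v2.1 the 152nd of D05, and the coding lengths of 207 and 465 bases differ, so they were not paired.
Gohir.D05G023200.v2.1 fell at 150 mM and was back at its first level at 300 mM, with 17.3, 17.7 and 12.7, then 7.84, 4.21 and 5.38, then 16.3, 15.9 and 17.9. Its second step was 1.49 (SE 0.20, limma adjusted p = 0.00396). Gohir.D05G186900.v2.1 (1.15, limma adjusted p = 0.0207) and Gohir.D05G119100.v2.1 (1.12, limma adjusted p = 0.0432) rose less. The latter calls were lost in 5 and 9 of the other settings, with adjusted p up to 0.0765 and 0.128.

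Among the 4 falls named on D05 from 150 to 300 mM, 2 genes had risen at the first step. Gohir.D05G315400.v2.1 had 57.6, 32.9 and 82.4, then 170, 271 and 163, then 43.7, 17 and 11.3, a second step of -3.23 on the log2 scale (SE 0.47, limma adjusted p = 0.00523). Gohir.D05G006300.v2.1 had 42.6, 22.5 and 58.5, then 89.3, 235 and 97.1, then 33, 12 and 13.9, with a second step of -2.80 (SE 0.49, limma adjusted p = 0.0107). In both genes replicate 1 at 300 mM was the highest library of its group. The A05 partner of the latter, Gohir.A05G005600.v2.1, fell at this step too (-2.81, SE 0.44, limma adjusted p = 0.00677), as did Gohir.A05G313900.v2.1, the fall named on A05 (-3.37, SE 0.45, limma adjusted p = 0.00372).
Gohir.D05G050700.v2.1 had 58.5, 32.3 and 35.5, then 72.3, 71.2 and 100, then 28.9, 6.39 and 8.40 (second step -2.73, SE 0.47, limma adjusted p = 0.0101), and its first step did not pass (0.97, limma adjusted p = 0.15). Gohir.D05G035100.v2.1 had 27.2, 15.3 and 19.9, then 20.2, 13.4 and 29.7, then 7.73, 0.329 and 3.31, with overlapping libraries at 50 and 150 mM (first step -0.016, limma adjusted p = 0.989). Its second step of -2.79 (SE 0.685, limma adjusted p = 0.0437) was lost in 11 other settings, with adjusted p up to 0.132.

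Of the 5 most abundant D05 genes 4 passed a test, and those 4 were lower at 150 or 300 mM than at 50 mM. Gohir.D05G173200.v2.1, the highest, had 1711.5, 2217 and 1837 at 50 mM, 1254, 1400.4 and 1235 at 150 mM and 1635, 1795 and 1895 at 300 mM. It fell by 0.56 on the log2 scale at 150 mM (SE 0.15, limma adjusted p = 0.0176). Gohir.D05G082600.v2.1 stood at 2054 ± 409, 1427 ± 174 and 1065 ± 144 (mean ± SD, n = 3 per concentration) and was lower at 300 than at 50 mM by 0.94 (SE 0.18, limma adjusted p = 0.0043).
Gohir.D05G176900.v2.1 had 1745, 2038 and 1288, then 235, 398 and 343, then 158, 231 and 611, a log2 change of -2.38 at 150 mM (SE 0.43, limma adjusted p = 0.00342). It took 22772 to 36864 reads per library at 50 mM and 3029 to 11707 at 300 mM. Gohir.D05G162500.v2.1 was lower by 1.32 at 300 against 50 mM (SE 0.22, limma adjusted p = 0.0019), and Gohir.D05G012901.v2.1, at 1024 ± 118, 1133 ± 50.5 and 1137 ± 338, passed no test (limma F adjusted p = 0.829).

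Homoeologous pairs were sought from the gene lengths, since no annotation pairs the IDs. A D gene and an A gene were paired where their recovered coding lengths were equal the pair lay in a chain of such pairs in ID order, and at least 4 other pairs of the chain lay within 15 genes of it on both chromosomes. The genes aligned had at least 20 recovered reads. This step was added after the data had been seen. D05 and A05 in the same order gave 1236 aligned and 1206 supported pairs. The other 24 alignments of D05, in the same or reversed order with each A chromosome and leaving out A04 reversed, gave 120 to 203 aligned and 0 to 2 supported pairs. Equal length and order do not show that genes are homoeologues, and reads of near-identical copies may have been counted at either copy, which would make copies look alike.

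The chain between D05 and A05 ran from Gohir.D05G000300.v2.1 to Gohir.D05G329500.v2.1 and from Gohir.A05G000050.v2.1 to Gohir.A05G328500.v2.1. From Gohir.D05G330500.v2.1 to Gohir.D05G388750.v2.1 D05 aligned with the start of A04 in reversed order, with 118 supported pairs. The end of A05, from Gohir.A05G330500.v2.1, aligned with the start of D04 in 254 pairs. So the IDs of chromosome 5 in the subgenomes are not all counterparts, and the comparison was repeated within the chain.
In the D05 stretch matched with A05 34.2%, 7.87% and 38.0% of 2414 tested genes changed in the 3 comparisons and 42.8% passed the F test. In the A05 stretch the shares were 33.9%, 7.90%, 36.7% and 42.4% of 2342. The D05 stretch matched with A04 was lower, at 26.2%, 5.83%, 32.4% and 34.6% of 309 genes, and its A04 counterpart stood at 26.7%, 5.96%, 30.5% and 32.6% of 285. The A05 stretch matched with D04 had 27.7%, 5.56%, 29.7% and 34.2% of 593 genes, and its D04 counterpart 31.2%, 5.17%, 32.1% and 36.8% of 619. No test was made between the stretches.

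For 1088 pairs of D05 and A05 both genes were tested. The D05 gene changed in 375 pairs for 150 against 50 mM and the A05 gene in 385, in 238 of them both (63.5% of the D05 calls and 61.8% of the A05 calls). Over all 9462 pairs of the genome 32.4% of D genes and 32.5% of A genes were called, and 62.4% and 62.2% of these calls were shared, close to the D05 values. For 300 against 150 mM the counts were 99 on D05 (9.10%) and 91 on A05 (8.36%), against 7.25% and 7.04% over all pairs. Of these, 54 were shared (54.5% and 59.3% of the calls, against 55.8% and 57.5%). For 300 against 50 mM the counts were 437 (40.2%) and 424 (39.0%), against 36.4% and 36.7%. Of these, 285 were shared (65.2% and 67.2%, against 66.0% and 65.3%). The F test was passed by 492 D05 genes and 490 A05 genes (45.2% and 45.04%), against 40.4% and 40.9% over all pairs. Log2 changes of the paired genes went together across pairs, with a Pearson r of 0.80 for each comparison, as a description over pairs that share libraries and may share reads. The 8269 pairs without a D05 gene gave 0.77, 0.75 and 0.79.

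A change of the D05 to A05 ratio is a direct test of the pair, with limma fitted to the log2 ratio of all 9462 pairs of the genome and adjusted over them. For 150 against 50 mM the ratio changed in 154 D05 pairs (14.2%, against 12.7% of all pairs), for 300 against 150 mM in 16 (1.47%, against 1.15%), and for 300 against 50 mM in 172 (15.8%, against 13.6%). The F test of the ratio was passed by 185 (17%, against 15.3%). Left-out libraries moved these counts. For 300 against 50 mM 82 to 107 pairs changed without replicate 1, 2 or 3 at 50 mM or replicate 1 at 300 mM. For 150 against 50 mM 89 to 101 changed without any one of the 50 mM libraries or without replicate 1 or 3 at 150 mM, and up to 160 without a library at 300 mM. For 300 against 150 mM it was 1 without replicate 2 at 150 or at 300 mM, 29 without replicate 1 at 300 mM, and 3 to 9 without any other library.

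In both comparisons with 50 mM the ratio moved towards D05 more often than towards A05, while for 300 against 150 mM it moved 8 times each way. For 150 against 50 mM the D05 gene rose against its partner in 93 pairs and fell in 61 (60.4% rises), and for 300 against 50 mM in 104 and 68 (60.5%). In pairs of the other D chromosomes, taken as a pool, the split was 525 to 515 and 549 to 550 (50.5% and 50.0%). A pool can hide leans of single chromosomes in either direction. Their separate splits are not given, so the lean cannot be called particular to D05. The D05 share was 59.5% to 65.6% and 54.4% to 62.6% with each library left out in turn, and 60.8% and 56.0% with a replicate block. The 2 comparisons share the 50 mM libraries, and no test was made of the split.
Averaged over the 1088 pairs, the D05 minus A05 log2 level was -0.0042, -0.0087 and -0.0114 at 50 mM. It was 0.035, 0.048 and 0.036 at 150 mM and 0.027, 0.026 and 0.052 at 300 mM. The group means were -0.0081 ± 0.0036, 0.040 ± 0.0073 and 0.035 ± 0.0145 (SD, n = 3), and the 50 mM libraries lay below the other 6, which was not so over all tested genes. D12 minus A12 showed this order over all tested genes, and no average over pairs is given for other chromosomes.

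**Figure D4:**
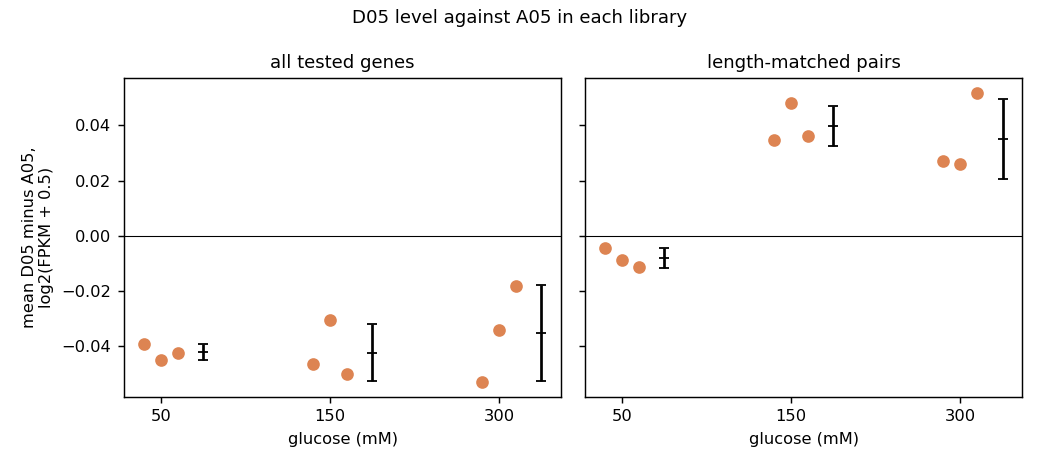
Mean D05 minus A05 level on the log2(FPKM + 0.5) scale (y axis) in each library at 50, 150 and 300 mM glucose (x axis), over all tested genes on the left and over the 1088 length-matched pairs on the right; points are libraries, and black bars the mean ± SD of 3. On the right the 3 points at 50 mM lie below 0 and the other 6 above it, while on the left the groups overlap.

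Pairs in which both genes changed moved the same way with few exceptions. Both genes passed in opposite directions in 3 of 238 pairs for 150 against 50 mM, 0 of 54 for 300 against 150 mM and 4 of 285 for 300 against 50 mM. Over all pairs the counts were 35 of 1913, 3 of 383 and 31 of 2271. The pair of the most abundant D05 gene was among them. While Gohir.D05G173200.v2.1 fell at 150 mM, Gohir.A05G170100.v2.1, of the same coding length of 999 bases, had 2057, 3098 and 2300.5 at 50 mM, 4904, 4133 and 5906 at 150 mM and 4984, 3099 and 3057 at 300 mM. The A05 gene rose by 1.01 at 150 mM (SE 0.24, limma adjusted p = 0.0129), and the ratio fell by 1.57 on the log2 scale (SE 0.23, limma adjusted p = 0.0026). The A05 gene took 0.203% to 0.305% of all reads of a library at 50 mM and 0.413% to 0.607% at 150 mM.
Gohir.D05G279300.v2.1 went the other way in both comparisons with 50 mM. It had 31.7, 31.3 and 32.8, then 77.0, 59.9 and 62.8, then 59.5, 56.8 and 59.1, while Gohir.A05G277600.v2.1 had 25.4, 26.3 and 23.2, then 19.9, 19.1 and 17.3, then 16.4, 20.9 and 19.1. None of the groups at the higher concentrations overlapped 50 mM in either gene, and the ratio rose by 1.44 at 150 mM (SE 0.13, limma adjusted p = 0.00026) and by 1.27 at 300 mM (limma adjusted p = 0.00033).
In Gohir.D05G145600.v2.1 the D05 level fell at 150 mM from 18, 15.8 and 14.2 to 9.04, 11.1 and 9.15, while Gohir.A05G143200.v2.1 rose from 13.5, 15.5 and 16.6 to 17.5, 25.2 and 20 (ratio -1.12, limma adjusted p = 0.0052). For 300 against 50 mM Gohir.D05G261300.v2.1 fell by 0.46 and Gohir.A05G259300.v2.1 rose by 0.57, and Gohir.D05G283011.v2.1 rose by 0.44 and Gohir.A05G281100.v2.1 fell by 0.31. The last pair of opposite calls was Gohir.D05G050700.v2.1, which fell by 1.76, and Gohir.A05G048800.v2.1, which rose by 0.54 from 7.69, 6 and 8.13 to 11.4, 10.3 and 10.6.

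**Figure D5:**
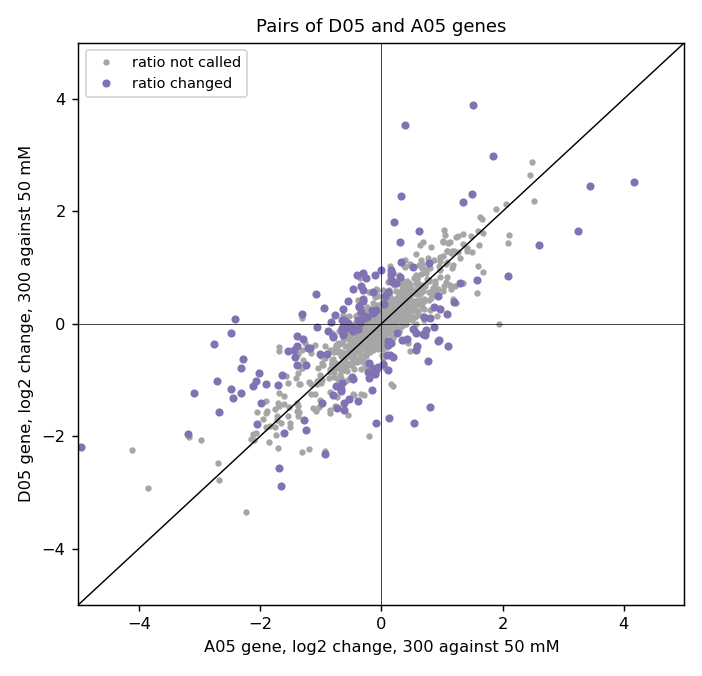
Log2 change for 300 against 50 mM of the D05 gene (y axis) against that of its A05 partner (x axis) in 1088 length-matched pairs; purple points are the 172 pairs whose ratio changed and the diagonal marks equal change. Most points lie along the diagonal, and 104 of the purple points lie above it.

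At 300 against 50 mM 51 of the 172 ratio changes on D05 were at least 2-fold, against 400 of 1288 over all pairs. The following pairs are the 5 largest in each direction among those with ratios that do not overlap and a mean FPKM of at least 10 in a group, a rule set after the data had been seen. The D05 gene Gohir.D05G169400.v2.1 rose from 0.506, 1.31 and 0.206 to 10.5, 7.44 and 8.48 and then 15.7, 9.49 and 11.7, while Gohir.A05G166400.v2.1 stood at 0.506, 2.01 and 1.95, then 2.12, 2.17 and 2.44, then 1.89, 1.65 and 2.18. At 50 mM the D05 gene equalled its partner in replicate 1 and lay below it in replicates 2 and 3. Its values there rest on 5, 13 and 2 reads. At 150 and 300 mM it lay above its partner in every library, with a ratio change of 3.14 at 300 against 50 mM (SE 0.41, limma adjusted p = 0.00114).
In the pair of Gohir.D05G070700.v2.1 both genes rose, but the D05 gene from a lower level. Gohir.A05G067700.v2.1 had 31.0, 37.7 and 29.3 at 50 mM, 104, 124 and 188 at 150 mM and 142, 64.2 and 91.0 at 300 mM. The D05 gene was the lower of the pair in all 3 libraries at 50 mM and the higher in all 6 others, and the ratio rose by 2.38 (SE 0.14, limma adjusted p = 1.12e-05).

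In 3 other pairs the ratio rose while the A05 gene fell. Gohir.D05G102900.v2.1 had 54.1, 63.8 and 54.5, then 21.5, 34.9 and 13.8, then 13.4, 9.94 and 13.5. Gohir.A05G103200.v2.1, the largest fall on A05 at 300 against 50 mM, had 54.1, 83.3 and 62.8, then 3.97, 5.02 and 1.60, then 0.919, 1.70 and 2.65. The libraries of the pair overlapped at 50 mM, and the pair stood at 12.3 ± 2.04 against 1.76 ± 0.87 (mean ± SD, n = 3) at 300 mM, and the ratio rose by 2.76 (SE 0.27, limma adjusted p = 0.000297).
The return of Gohir.D05G023200.v2.1 at 300 mM was not shared by Gohir.A05G021700.v2.1, which had 4.25, 5.28 and 2.70, then 0.885, 0.950 and 0.128, then 0.373, 0.382 and 0.249 (ratio change 2.501, SE 0.33, limma adjusted p = 0.00136). In Gohir.D05G228000.v2.1 the D05 gene stayed under an FPKM of 3 while Gohir.A05G225300.v2.1 fell from 34.9 ± 3.71 to 5.03 ± 2.22 (ratio change 2.41, limma adjusted p = 0.0029).

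In most of the pairs named that moved away from D05, the D05 gene began with an excess and lost part or all of it. Gohir.D05G050700.v2.1 went from 42.1 ± 14.3 at 50 mM to 14.6 ± 12.5 at 300 mM against 7.28 ± 1.12 and 10.8 ± 0.54 in its partner, a ratio change of -2.30 (SE 0.42, limma adjusted p = 0.00603). Gohir.D05G051000.v2.1 went from 73.7 ± 6.72 to 28.2 ± 21.8 against 3.796 ± 0.73 and 5.13 ± 3.795 in Gohir.A05G049100.v2.1 (-1.82, limma adjusted p = 0.000382). These D05 genes were the 382nd and 385th tested on the chromosome.
Gohir.D05G214900.v2.1 fell from 18.3 ± 3.73 to 6.43 ± 2.37 while Gohir.A05G211600.v2.1 stood at 3.79 ± 0.62 and 7.24 ± 2.91 (ratio change -2.28, limma adjusted p = 0.0014). In Gohir.D05G073900.v2.1 both genes rose, the D05 gene from 32.0 ± 3.33 to 188 ± 31.4 and Gohir.A05G071000.v2.1 from 0.554 ± 0.32 to 20.8 ± 14.1, so the D05 excess shrank (-1.64, limma adjusted p = 0.0142). Gohir.D05G172400.v2.1 had no excess to lose. It stood at 2.34 ± 1.34 at 50 mM and 0.279 ± 0.18 at 300 mM, against 7.04 ± 3.61 and 6.59 ± 3.88 in Gohir.A05G169200.v2.1. The ratio call of this pair (-1.69, limma adjusted p = 0.0429) was lost in 10 other settings, with adjusted p up to 0.128.

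The ratio calls were spread over the chain. For 300 against 50 mM they were found in all 25 D05 blocks that held pairs, in 3 to 12 of 28 to 55 pairs in blocks 1 to 24. The high block 16 had 10 in 48 pairs (20.8%), of which 3 moved towards D05. In block 16, 29 D05 genes and 22 A05 partners of the 48 pairs were called for 300 against 50 mM, and 28 and 27 for the F test.

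Of the 118 supported pairs between the end of D05 and A04, 104 had both genes tested. The ratio changed in 8 of them for 150 against 50 mM (7.69%, against 12.7% of all pairs). It changed in 3 for 300 against 150 mM (2.88%, against 1.15%) and 17 for 300 against 50 mM (16.3%, against 13.6%). For 300 against 50 mM the D05 gene fell against its A04 partner in 13 of the 17 (550 of 1099 in pairs of the other D chromosomes). In this stretch Gohir.D05G355800.v2.1, of 192 bases, had 23.4, 22.7 and 18.4, then 3.97, 6.53 and 1.61, then 0.521, 0.533 and 1.57, the largest fall named on D05 at 300 against 50 mM (log2 change -4.08, SE 0.41, limma adjusted p = 0.000185). Its partner Gohir.A04G030300.v2.1 fell too, from 88.5, 67.7 and 93.3 to 34.4, 42.6 and 25.2 and then 11.2, 14.4 and 21.9 (-2.40, SE 0.26, limma adjusted p = 0.000234).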

How the data were processed

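Libraries were made from total RNA with a NEBNext Ultra kit, per the labels' protocols. The authors deposited FPKM values per gene and library. HISAT2 and featureCounts 1.5.0-p3 are named per the submitters' processing notes, while genome build, annotation, strand setting and treatment of shared reads were not given in the sources used here. Libraries were grouped by the glucose concentration in their labels. Whole reads and gene lengths were recovered from ratios of FPKM within a gene (tolerance 0.001, all 68279 rows above 0, 100%), and 95.5% of the recovered lengths of Gohir IDs were divisible by 3, so they are called coding lengths. Read numbers cover counting error only.

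The fit was limma 3.58.1 (trend, robust, statmod 1.5.0, R 4.3.3) on log2(FPKM + 0.5), which understates the change of low genes, with a two-sided threshold of 0.05 after Benjamini-Hochberg adjustment over 50988 genes. Named genes were the 4 largest rises and falls per comparison among called genes with groups that do not overlap and a mean FPKM of at least 10 in the higher group, the 5 most abundant, the gene of largest change in each of the 2 highest and 2 lowest blocks, and on A05 the largest rise and fall per comparison. Permutation tests were two-sided, or of the F statistic, and enumerated with SciPy 1.17.1. The fits, the pair fit and the alignment were tested on simulated data. The chromosomes, the rule for naming genes and the tests were chosen with earlier results of these data known, and the pairing, the ratio fit and the matched stretches were added later.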

Additional observations from a re-analysis of the deposited data

How the results depend on the processing

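With all libraries, 2728 D05 genes and 2948 A05 genes were tested. A higher A05 count below is therefore not by itself a higher share. With a threshold of 0.01 the D05 and A05 counts were 490 and 538 for 150 against 50 mM and 76 and 73 for 300 against 150 mM. They were 565 and 587 for 300 against 50 mM, and 630 and 647 for the F test. Requiring a change of at least 2-fold left 388 and 422, 112 and 134, and 411 and 428. For 300 against 150 mM, a fit of the 2 groups alone gave 127 and 134, and a replicate block 136 and 144. Replicate numbers did not pair the libraries: deviations from the group means correlated at -0.27 to 0.10 between libraries of the same number, against -0.25 to 0.24 between others, and 4 of 18 best partners had the same number. With each library left out in turn, D05 counts ranged from 627 to 969, 104 to 306, 702 to 992 and 796 to 1126, and A05 counts from 679 to 1007, 119 to 311, 741 to 1011 and 858 to 1178. Over these fits the D05 minus A05 difference ranged from -0.79 to 1.61, -0.20 to 0.82, 0.64 to 2.29 and 0.12 to 1.85 points. The share of D05 calls that were higher was 59.8% for 150 against 50 mM with scaling to recovered reads and 58.8% with limma-voom. For 300 against 150 mM it was 14.4% with a filter at FPKM 5, 13.2% at the threshold of 0.01, 27.6% with upper-quartile scaling, 32.1% with recovered reads, 32.4% with limma-voom, and 11.2% to 28.1% with a library left out. For 300 against 50 mM it was 53.9%, 60.5% and 59.4% with the last 3 scalings and 42.6% at 2-fold. Leave-one-out ranges of the first and last were 52.3% to 57.5% and 44.6% to 48.8%. The D05 minus A05 level at 300 minus that at 50 mM was 0.0070, but -0.0028 as a median over genes and -0.0047 without replicate 3 at 300 mM (leave-one-out range -0.0047 to 0.0119). Changed ratios of D05 pairs numbered 89 to 160, 1 to 29, 82 to 160 and 106 to 178 with a library left out, and for 300 against 150 mM 10 with a pseudocount of 0.1 and 3 with a replicate block. In blocks of 50 genes the lowest share passing the F test was 18%. The log2 change of Gohir.D05G173200.v2.1 at 300 against 50 mM, which passed no test, turned to 0.022 with recovered reads and 0.023 with limma-voom, and that of Gohir.D05G012901.v2.1 (0.11) to -0.075 without replicate 3 at 300 mM, within a leave-one-out range of -0.075 to 0.37. The cause of these shifts was not tested. A gene of few reads, such as Gohir.D05G296000.v2.1, is limited by depth.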
